A study of Mus musculus with 18 samples.

Results

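The genes described here are 8 members of the natriuretic peptide and cyclic GMP pathway: the receptor genes Npr1, Npr2 and Npr3, the soluble guanylyl cyclase subunit genes Gucy1a3 and Gucy1b3, the kinase genes Prkg1 and Prkg2, and the phosphodiesterase gene Pde5a. They were chosen by symbol, and all 8 had a row in each of the 18 samples, out of 45151 symbols with a row in every sample. RNA was measured by RNA-seq in fat of wild type male mice aged 16 weeks that ate regular chow, of the strain C57BL/6 by their tag and C57BL/6J by the protocol and the methods. The purpose was to find the Gs-coupled receptors that mouse fat expresses. There were 6 samples of inguinal white adipocytes (iWAT), 6 of epididymal white adipocytes (eWAT) and 6 of brown adipose tissue (BAT). Both kinds of white adipocyte had been freed with collagenase and skimmed off as a floating layer, whereas BAT was, by the protocol and the source label, frozen as tissue (its cell type tag reads BAT adipocytes), so depot and preparation cannot be told apart in a comparison with BAT. The labels name no transgene and no agent in any group. Samples are named here by their depot and the number in their title (iWAT 14, BAT 12). The labels do not say what that number stands for or that the samples of a depot came from separate mice, so p-values measure the spread between these samples.

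Cyclic GMP is made in response to peptides outside the cell or to nitric oxide inside it. The receptors NPR-A (Npr1, for atrial and B-type natriuretic peptide) and NPR-B (Npr2, for C-type natriuretic peptide) carry a guanylyl cyclase in their own chain, and nitric oxide switches on the soluble cyclase, a dimer of the Gucy1a3 and Gucy1b3 products. NPR-C (Npr3) has no cyclase and takes the peptides out of circulation, and is therefore called the clearance receptor. Cyclic GMP then acts through cyclic GMP dependent protein kinase (Prkg1 and Prkg2) and is destroyed by phosphodiesterases such as PDE5 (Pde5a). The pathway is known for stimulating lipolysis in human adipocytes and the thermogenic program of brown and beige fat in mice. A high ratio of clearance receptor to NPR-A is known to limit the pathway.

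Levels are given as deposited in RPKM, the read count of a row scaled to its length and to the sample's total reads. The reads behind the RPKM numbered 22929576 to 32141048 in iWAT, 26607733 to 34048018 in eWAT and 26706786 to 34512470 in BAT. In iWAT and BAT each gene had 1 row with its exons merged, while in eWAT each transcript had its own row, and the most-read transcript was taken. None of the 8 genes had an identical row in both kinds of file, and the merged row was longer than the eWAT transcript by 1.11 times (Gucy1b3) to 3.95 times (Prkg1). Kind of file and depot cannot be told apart in a comparison with eWAT. Marker genes followed the labels: Adipoq (adiponectin) had a mean RPKM of 1854 (iWAT), 1789 (eWAT) and 302 (BAT), and Ucp1 (uncoupling protein 1) had 2.82, 0.327 and 1219. Some samples stood apart in other markers: the summed RPKM of 5 skeletal muscle markers was 1340 in BAT 12 and at most 119 in the other BAT samples, that of 6 macrophage markers was 668 in eWAT 15 and at most 133 in the other eWAT samples, and that of 5 epididymis markers was 75.0 in eWAT 14 and 67.5 in eWAT 15 and at most 3.65 in the others.

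Npr3 was by far the most abundant of the 8 genes in white adipocytes and, of the 7 genes tested, differed most between white adipocytes and BAT. Its RPKM was lowest at 80.6, with a median of 144 and a highest value of 181, in the 6 iWAT samples. In eWAT it ran from 137 over a median of 216 to 258. In BAT it ran from 5.65 over a median of 7.04 to 13.6. Every iWAT and every eWAT sample thus lay above every BAT sample, and the ratio of mean RPKM to BAT was 16.3 in iWAT and 25.5 in eWAT. These values rested on 19689 to 54573 reads per sample in iWAT, 31061 to 51804 in eWAT and 1443 to 3788 in BAT. Marker sums of other kinds also separated white adipocytes from BAT without overlap. That of 7 stromal and preadipocyte markers was 534 to 784 RPKM (iWAT), 221 to 325 (eWAT) and 48.2 to 67.3 (BAT). That of 6 adipocyte markers was 11044 to 16821 in iWAT and 9313 to 17091 in eWAT, which overlapped, and 7188 or less in BAT. Their part in the Npr3 difference was not tested. In bulk samples such as these, fewer cells of a type and less RNA per cell cannot be told apart.

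The receptors with their own cyclase spanned a much narrower range. Npr1, which encodes NPR-A, ran from 1.95 over a median of 2.23 to 6.78 RPKM in iWAT, from 3.81 over 4.83 to 9.41 in eWAT, and from 4.38 over 7.22 to 10.7 in BAT. Its groups overlapped in each pair of depots. In iWAT the overlap with BAT came from iWAT 14 alone, as the other 5 iWAT samples lay at 3.69 or below. Npr2, which encodes NPR-B, ran from 6.01 over 7.02 to 8.57 RPKM in iWAT, from 5.45 over 10.7 to 14.1 in eWAT, and from 3.02 over 3.88 to 5.78 in BAT. All iWAT samples lay above all BAT samples for Npr2, and the lowest eWAT sample, eWAT 15, lay within the range of BAT.

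**Figure D1:**
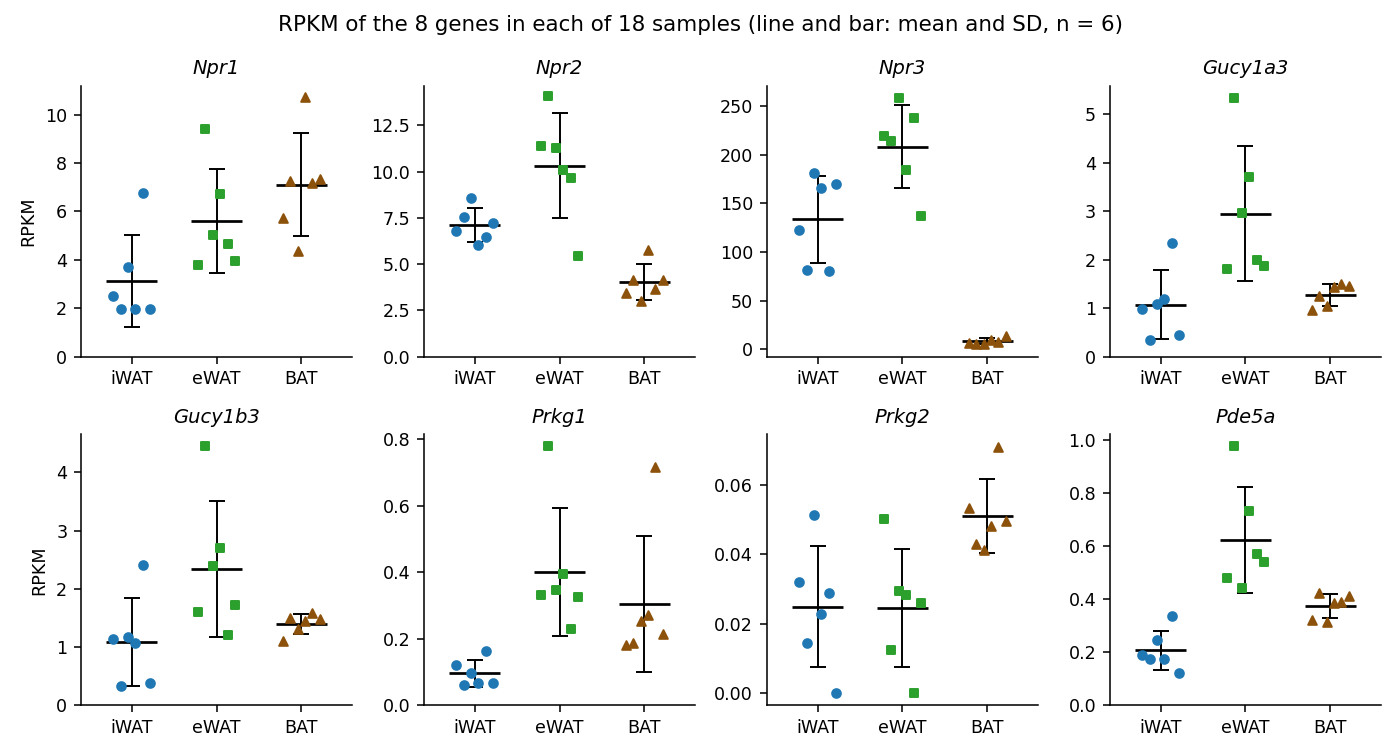
RPKM (vertical axes, linear, different in each panel) of the 8 genes in iWAT (circles), eWAT (squares) and BAT (triangles), where a point is a sample and the line and bar are the mean and SD of 6 samples. Npr3 sits between 80.6 and 258 in all white adipocyte samples and at 13.6 or below in BAT, and single high samples are seen for Npr1 (iWAT 14 at 6.78) and Prkg1 (eWAT 8 at 0.778, BAT 12 at 0.717).

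The windows around the starts of the 3 receptor genes are shown because these genes bind related ligands and yet differed over the depots. Npr2 and Npr3 both had a higher mean RPKM in white adipocytes than in BAT, by unlike amounts, and Npr1 had a lower one. A window holds 250 bases before and 50 bases after the start in RefSeq, on the build GRCm38.p6, which differs from the mm9 build of the deposited rows. Windows were found for 7 of the 8 genes, with Gucy1a3 and Gucy1b3 listed under their current symbols Gucy1a1 and Gucy1b1. Each is printed in the direction of transcription, and capitals mark matches to the GC box (GGGCGG, searched on both strands). The Npr1 window lies at chr3:90465817-90466116 (minus strand), the Npr2 window at chr4:43631685-43631984 (plus strand) and the Npr3 window at chr15:11907322-11907621 (minus strand).
Npr1: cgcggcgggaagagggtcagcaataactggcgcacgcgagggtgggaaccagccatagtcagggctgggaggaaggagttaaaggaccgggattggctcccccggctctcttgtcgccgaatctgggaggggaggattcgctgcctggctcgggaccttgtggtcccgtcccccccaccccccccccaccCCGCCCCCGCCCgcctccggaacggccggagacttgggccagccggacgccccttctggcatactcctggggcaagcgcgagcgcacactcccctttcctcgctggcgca
Npr2: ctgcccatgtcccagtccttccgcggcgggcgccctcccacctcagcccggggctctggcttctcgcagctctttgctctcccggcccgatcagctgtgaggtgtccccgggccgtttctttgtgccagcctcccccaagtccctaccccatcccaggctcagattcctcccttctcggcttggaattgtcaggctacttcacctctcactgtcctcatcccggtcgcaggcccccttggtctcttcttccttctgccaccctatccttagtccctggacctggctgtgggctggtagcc
Npr3: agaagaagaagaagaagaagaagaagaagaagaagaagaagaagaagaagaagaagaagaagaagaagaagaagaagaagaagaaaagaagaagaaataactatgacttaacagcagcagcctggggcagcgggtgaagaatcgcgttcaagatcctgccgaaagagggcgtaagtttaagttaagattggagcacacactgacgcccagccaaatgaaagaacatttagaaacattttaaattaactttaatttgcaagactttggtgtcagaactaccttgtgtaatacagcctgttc
The Npr1 window had a GC content of 69.7% and 2 GC boxes that abut each other on the opposite strand, where they read CCGCCC. The Npr2 window had 64.0% and no match, and the Npr3 window had 39.0%, which only 8.92% of all windows match or fall below, and no match. It opens with a long run of the triplet AGA. Gucy1a3, Gucy1b3, Prkg1 and Pde5a each had at least 1 window with a GC box, and a GC box was found in 35.7% of 32851 windows of the same length. The cyclic AMP response element (TGACGTCA, in 1.79% of all windows), a direct repeat of the nuclear receptor site with a spacer of 1 base (in 13 windows) and the CArG box (in 1.63%) were also searched on both strands, and none of the 7 genes had a match in its windows. A match describes these letters alone.

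The soluble cyclase and the phosphodiesterase were expressed at low levels in every depot. Gucy1a3, the alpha subunit of soluble guanylyl cyclase, ran from 0.351 over a median of 1.04 to 2.34 RPKM in iWAT, from 1.80 over 2.48 to 5.34 in eWAT, and from 0.966 over 1.35 to 1.5 in BAT. Gucy1b3, the beta subunit, ran from 0.335 over 1.11 to 2.41 in iWAT, from 1.21 over 2.05 to 4.44 in eWAT, and from 1.11 over 1.46 to 1.59 in BAT. Both subunits were thus tightly grouped in BAT and widely spread in iWAT, where iWAT 14 was highest and iWAT 11 lowest for both. Pde5a, which hydrolyses cyclic GMP, ran from 0.122 over 0.182 to 0.335 in iWAT, from 0.441 over 0.555 to 0.978 in eWAT, and from 0.313 over 0.386 to 0.422 in BAT, so that all eWAT samples lay above all samples of the other depots in RPKM. The merged Pde5a row is 1.37 times as long as the eWAT transcript. Its reads overlapped, at 29 to 98 in iWAT, 86 to 224 in eWAT and 77 to 133 in BAT.

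The kinase genes were the lowest of the set. Prkg1, whose product carries most cyclic GMP signaling in smooth muscle, ran from 0.0602 over 0.0826 to 0.163 RPKM in iWAT (20 to 67 reads), from 0.229 over 0.340 to 0.778 in eWAT (20 to 87 reads), and from 0.181 over 0.235 to 0.717 in BAT (81 to 289 reads). All iWAT samples lay below all others, while eWAT and BAT overlapped. The eWAT row is not a like-for-like row, since the most-read Prkg1 transcript there is a record of 2 exons and 3283 bases at the 3′ end of the gene. The full-length transcript of 19 exons averaged 0.308 ± 0.144 RPKM (SD, n = 6) there, with 22 to 79 reads. Prkg2, the second kinase gene, had 0 to 9 reads in iWAT, 0 to 8 in eWAT and 6 to 12 in BAT, with a highest RPKM of 0.0710. It was under the minimum of 10 reads in 6 samples in each comparison and was left out of the fits by that filter. With no filter on low counts, edgeR called it lower than in BAT in iWAT (-1.19 ± 0.46 SE, adjusted p = 0.046) and in eWAT (-1.64 ± 0.53 SE, adjusted p = 0.014), with 0.42 ± 0.57 between iWAT and eWAT (adjusted p = 0.64), all on these few reads. A count of 3 reads, the upper limit that 0 reads allow, equals 0.0160 to 0.0240 RPKM for Prkg2, a limit that covers counting error only.

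The order of the levels put Npr3 first in all depots. In iWAT and eWAT it was followed by Npr2 and Npr1, and in BAT by Npr1 and Npr2. In iWAT and eWAT Npr3 was clear of its next neighbour in all samples, with no overlap, whereas in BAT Npr3 and Npr1 overlapped, and Npr3 was higher than Npr1 in 4 of 6 samples. Npr2 and Npr1 overlapped in each depot. The cyclase subunits came next and overlapped each other in each depot, then Pde5a and Prkg1, which overlapped too, and Prkg2 last, below Prkg1 without overlap in each depot. Npr3 made up 85.9% to 95.4% of the summed RPKM of the 3 receptors in iWAT, 90.1% to 94.3% in eWAT and 33.1% to 54.2% in BAT.

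The balance between clearance receptor and NPR-A was compared within each sample, as the log2(RPKM + 0.1) of Npr3 minus that of Npr1, a measure that sequencing depth does not affect. For iWAT it averaged 5.45 ± 1.03 (SD, n = 6), for eWAT 5.24 ± 0.55 (SD, n = 6) and for BAT 0.18 ± 0.43 (SD, n = 6). These averages equal ratios of 43.7, 37.8 and 1.13. The lowest ratio in white adipocytes, 11.7 in iWAT 14, was still well above the highest in BAT, 1.84 in BAT 13. The summed RPKM of 6 endothelial markers was also highest of iWAT in iWAT 14, at 146. Centred on each depot, its r over the 18 samples was 0.95 with Npr1 and 0.07 with Npr3. Whether the 2 genes of the balance are expressed in the same cells was not tested. The difference from BAT was 5.27 ± 0.45 (SE) for iWAT and 5.06 ± 0.28 (SE) for eWAT, each with p = 0.00216 in a two-sided exact permutation test, the smallest p that 6 against 6 samples can give (adjusted p = 0.00433 over 6 tests). Between iWAT and eWAT the difference was 0.21 ± 0.47 (SE), with an exact permutation p of 0.677, and the interval implied by this error leaves room for a difference in either direction.

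The subunits of soluble guanylyl cyclase were near equal in amount in each depot. The log2 balance of Gucy1a3 over Gucy1b3 averaged 0.01 ± 0.15 (SD, n = 6) for iWAT, 0.33 ± 0.21 (SD, n = 6) for eWAT and -0.14 ± 0.12 (SD, n = 6) for BAT. All eWAT samples lay above 0 and all BAT samples below it. By two-sided exact permutation tests eWAT minus BAT was 0.46 (p = 0.00216, adjusted p = 0.00433) and iWAT minus eWAT was -0.31 (p = 0.0108, adjusted p = 0.0162), while iWAT minus BAT was 0.15 (p = 0.0974, adjusted p = 0.117). The merged rows are longer than the eWAT transcripts by 1.39 times for Gucy1a3 and 1.11 times for Gucy1b3. RPKM divides by row length, so these unlike factors enter the eWAT balance and both tests with eWAT. Row length and depot cannot be told apart in those tests. The part of row choice was not tested beyond taking other transcripts. With the eWAT transcript of highest RPKM iWAT minus eWAT was -0.18 with an exact permutation p of 0.104.

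**Figure D2:**
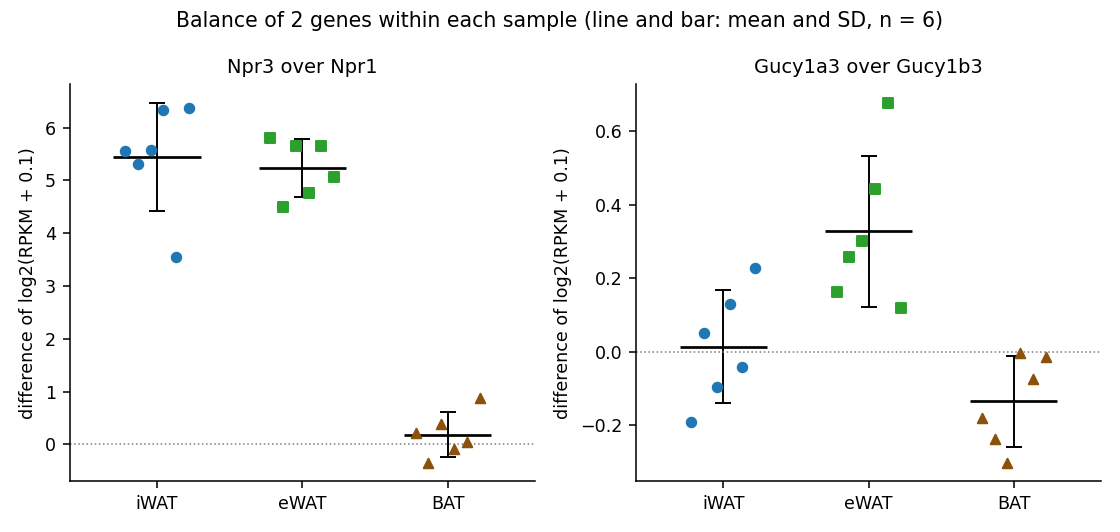
Difference of log2(RPKM + 0.1) between Npr3 and Npr1 (left) and between Gucy1a3 and Gucy1b3 (right) in each sample of iWAT (circles), eWAT (squares) and BAT (triangles), with the mean and SD of 6 samples. On the left all white adipocyte samples lie at 3.55 or above and all BAT samples at 0.88 or below, and on the right the samples of all depots lie between -0.30 and 0.68.

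The comparison of iWAT with BAT is the most direct one, as both have the same merged rows. Read counts were compared with edgeR's quasi-likelihood test and Benjamini-Hochberg adjustment over all 19733 rows tested. Of the 7 genes tested, 2 were higher and 3 lower in iWAT, against a background in which 67.6% of all rows passed the test (34.0% higher and 33.6% lower), so that passing is the common outcome between these depots. The median log2 fold change was -0.62 over the 7 genes and 0.01 over all rows. Npr3 rose by 3.76 ± 0.27 (SE) on the log2 scale, 13.6-fold (adjusted p = 3.0e-08), and Npr2 by 0.57 ± 0.11 (adjusted p = 0.00047). Npr1 fell by 1.42 ± 0.30 (adjusted p = 0.00081), Pde5a by 1.10 ± 0.20 (adjusted p = 0.00022) and Prkg1 by 1.92 ± 0.38 (adjusted p = 0.00046). The cyclase subunits had log2 fold changes of -0.51 ± 0.35 for Gucy1a3 (adjusted p = 0.21) and -0.62 ± 0.37 for Gucy1b3 (adjusted p = 0.15). In RPKM, 3 of the 7 genes had groups that did not overlap (Npr2, Npr3 and Prkg1), against 48.4% of the 17422 symbols compared. Npr2 and Npr3 were the higher ones, where 32.1% of symbols stood, and Prkg1 the lower one, where 16.2% stood.

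A single library decided some of these values. Without iWAT 14 the fall was -0.90 for Gucy1a3 (adjusted p = 0.010) and -1.03 for Gucy1b3 (adjusted p = 0.0080) in the edgeR test, and Npr1 was at -1.80. All 7 genes then passed, in a fit where 13295 of 19322 rows passed, so that passing was again the common outcome. Without BAT 12, the library rich in skeletal muscle markers, Prkg1 was at -1.48 (adjusted p = 0.00022), compared with -1.92 with it.

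Between eWAT and BAT, 3 of the 7 genes passed the test (2 higher and 1 lower in eWAT), against 73.9% of 18383 symbols (39.9% higher and 34.0% lower). This fit used 1 row per symbol with its length as an offset, over all 18 samples. Npr3 rose by 3.96 ± 0.26 (SE) on the log2 scale, 15.5-fold (adjusted p = 1.3e-10), and Npr2 by 0.64 ± 0.16 (adjusted p = 0.0013), the same direction as in iWAT. Npr1 fell by 1.07 ± 0.29 (adjusted p = 0.0031), but this call rested on the scaling: it was -0.34 (adjusted p = 0.31) without TMM factors and -0.65 (adjusted p = 0.054) with factors from rows identical in all files. The log2 fold changes of the other genes were 0.47 ± 0.35 for Gucy1a3, -0.00 ± 0.37 for Gucy1b3, -0.34 ± 0.36 for Prkg1 and 0.00 ± 0.21 for Pde5a, with adjusted p between 0.24 and 0.99. For Gucy1a3 and Pde5a the RPKM groups did not overlap, as for Npr3, so that 3 of the 7 genes were separated in RPKM, all higher in eWAT, against 61.8% of all symbols (50.3% higher and 11.5% lower). The merged rows of Gucy1a3, Pde5a and Npr3 are 1.39, 1.37 and 1.36 times as long as their eWAT transcripts. The part of row length in these separations was not tested, and of the 3 genes the fit called Npr3 alone. Without the length offset Prkg1 was called lower in eWAT at -1.91 (adjusted p = 0.00016), so its value rests on how the 3.95-fold difference in row length is treated. Without TMM factors Gucy1a3 (1.21, adjusted p = 0.0054) and Pde5a (0.74, adjusted p = 0.0049) were called higher in eWAT, and Prkg1 and Gucy1b3 turned to 0.40 and 0.74, neither past the threshold.

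The scaling matters most for eWAT. Leaving out the TMM factors moved the median log2 fold change over all genes from 0.01 to 0.27 between iWAT and BAT, from 0.08 to 0.81 between eWAT and BAT, and from 0.04 to -0.40 between iWAT and eWAT. The share of calls in the higher direction moved with it, from 50.3% to 65.8%, from 54.0% to 78.7% and from 46.1% to 9.8%. The fold changes given here are relative to the TMM-scaled median. Npr3 and Npr2 kept the same sign and stayed past the threshold against BAT under each scaling tried.

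Between iWAT and eWAT none of the 3 receptor genes passed the test, with log2 fold changes of -0.22 ± 0.23 (SE) for Npr3, -0.10 ± 0.16 for Npr2 and -0.37 ± 0.29 for Npr1 (adjusted p = 0.44, 0.61 and 0.29 in edgeR). All 3 were called lower in iWAT without TMM factors, at -0.64, -0.54 and -0.83. The genes called were 3 of 7, all lower in iWAT, against 52.4% of 18383 symbols (24.2% higher and 28.2% lower). They were Gucy1a3 at -0.999 ± 0.354 (adjusted p = 0.024), Pde5a at -1.13 ± 0.21 (adjusted p = 0.00024) and Prkg1 at -1.60 ± 0.37 (adjusted p = 0.0016). Gucy1b3 was at -0.64 ± 0.37 (adjusted p = 0.15). In RPKM the groups of Prkg1 and Pde5a did not overlap, 2 of 7 genes against 32.4% of all symbols. Both lay lower in iWAT, as did 30.4% of symbols, while 1.94% lay higher.

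Row length bears on this comparison. Without the length offset Prkg1 was at -0.06 (adjusted p = 0.93), Gucy1a3 at -0.96 (adjusted p = 0.056) and Pde5a at -1.11 (adjusted p = 0.0011), so that Pde5a alone was called in both edgeR fits. That fit called 4712 of the 18383 symbols where the length offset gave 9635, and a fit over the 5632 tested rows identical in all files called 724. In the edgeR fit on the eWAT transcripts of highest RPKM, Gucy1a3 was at -0.74 (adjusted p = 0.078). Single libraries also mattered: Gucy1a3 was at -0.78 (adjusted p = 0.073) without eWAT 8 and at -0.84 (adjusted p = 0.053) without iWAT 15, and without iWAT 14 both Npr1 (-0.77, adjusted p = 0.0079) and Gucy1b3 (-1.07, adjusted p = 0.012) were called as well.

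**Figure D3:**
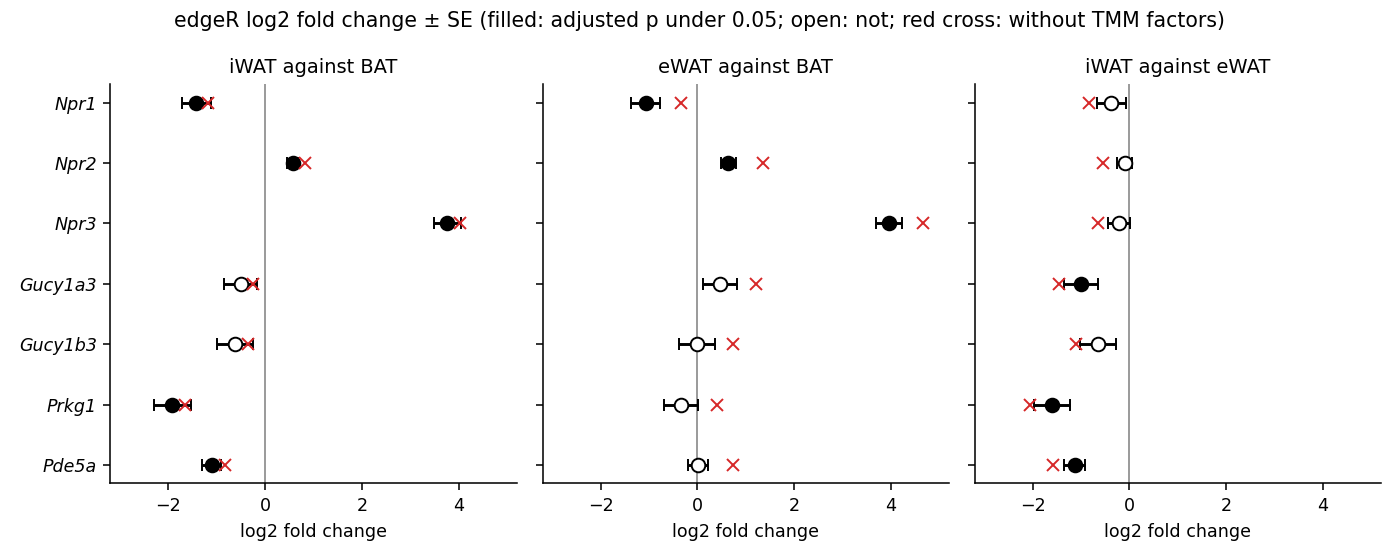
Log2 fold change (horizontal axis) ± SE of the 7 tested genes in 3 comparisons, with filled circles for adjusted p under 0.05 and red crosses for the value without TMM factors. Npr3 stands at 3.76 and 3.96 in both comparisons with BAT, the crosses lie to the right in the comparisons with BAT and to the left between iWAT and eWAT, and Prkg1 and Gucy1b3 change sign with the scaling between eWAT and BAT.

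Several of the genes were high or low in the same libraries. With the values centred on each depot's mean, Pearson's r over the 18 samples was 0.97 between Gucy1a3 and Gucy1b3, 0.83 between Npr1 and Gucy1a3, 0.86 between Npr1 and Pde5a, and 0.0055 between Npr1 and Npr3. The points share their libraries and the total behind the RPKM, and these values are descriptive. Gucy1a3 and Gucy1b3 are also neighbours in the genome: on mm9 Gucy1b3 spans chr3:81835926-81878633 and Gucy1a3 chr3:81896349-81949799, both on the minus strand and 17715 bases apart. Npr1 (chr3:90254513-90269788, minus strand) and Pde5a (chr3:122432076-122562292, plus strand) lie on the same chromosome, while Npr2 is at chr4:43644807-43664172 (plus), Npr3 at chr15:11769651-11837042 (minus), Prkg1 at chr19:30638979-31839523 (minus) and Prkg2 at chr5:99358720-99466370 (minus).

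Markers of vascular cells moved with these genes. The summed RPKM of 6 endothelial markers was 25.5 to 146 in iWAT, 82.7 to 218 in eWAT and 50.04 to 91.2 in BAT, and that of 10 smooth muscle and pericyte markers was 38.3 to 130, 111 to 222 and 84.8 to 133. None of these 16 markers was at 0 in all samples of a depot. Both sums were highest in iWAT 14 and in eWAT 8 within their depots, the libraries in which Npr1, Gucy1a3, Gucy1b3, Pde5a and Prkg1 were also highest. Centred on each depot, r over the 18 samples between the endothelial sum and the member was 0.95 for Npr1, 0.91 for Gucy1a3, 0.86 for Gucy1b3, 0.87 for Pde5a, 0.48 for Prkg1, 0.35 for Npr2 and 0.07 for Npr3. With the smooth muscle and pericyte sum it was 0.87 for Npr1, 0.86 for Gucy1a3 and 0.12 for Npr3. With the summed adipocyte markers it was 0.39 for Npr2, 0.37 for Gucy1a3, 0.36 for Npr3 and 0.27 for Npr1. With lymphocyte markers it ran from -0.42 for Npr3 and -0.41 for Npr2 to 0.06 for Pde5a. For epididymis markers it ran from -0.64 (Npr2) to -0.05 (Pde5a), and for skeletal muscle markers from -0.23 (Npr2) to 0.50 (Prkg1). The part of vascular cells in the differences between depots was not tested.

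**Figure D4:**
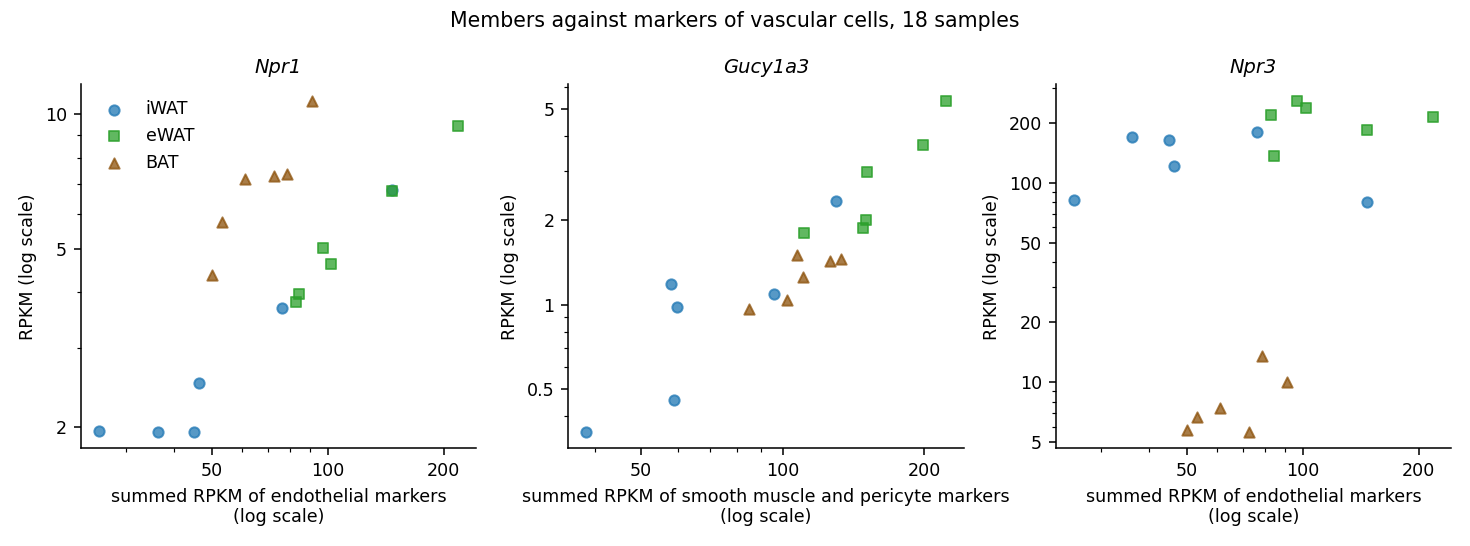
RPKM of Npr1, Gucy1a3 and Npr3 (vertical axes, log scale) against the summed RPKM of endothelial or of smooth muscle and pericyte markers (horizontal axes, log scale) in the samples of iWAT (circles), eWAT (squares) and BAT (triangles). Npr1 rises with the endothelial sum within each depot and sits higher in BAT at the same sum, whereas Npr3 shows no such rise and separates BAT from white adipocytes.

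The genes whose centred pattern over the 18 samples was most like that of a member were looked up among the 10338 genes that averaged 1 RPKM or more in each depot. For Npr1 they were Esam (r = 0.97), Fam43a (0.97) and Tie1 (0.97). For Gucy1a3 they were Gucy1b3 (0.97), Kif26a (0.94) and Kcnj8 (0.94), and for Gucy1b3 they were Gucy1a3 (0.97), Agtr1a (0.95) and Pdgfrb (0.95). Kcnj8 and Pdgfrb stand on the smooth muscle and pericyte list used above. For Npr2 they were Peg13 (0.92), Lamb2 (0.91) and Tenc1 (0.91), and for Npr3 Mpdz (0.90), Prrg3 (0.89) and AK033142 (0.88). Over the 12 samples of iWAT and BAT alone the 3 genes nearest to Npr1 were the same, while those nearest to Npr2 were all different. There Npr3 kept Mpdz alone, Gucy1a3 kept Gucy1b3 alone, and Gucy1b3 kept Gucy1a3 and Agtr1a. Kcnj8 and Pdgfrb were no longer among the 3 nearest, while Rgs5, of the same list, was for Gucy1a3.

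The ligand genes were all but absent. Over the 6 samples of a depot, Nppa (atrial natriuretic peptide) had 4 reads in iWAT, 5 in eWAT and 10 in BAT, Nppb (B-type) had 0, 0 and 1, and Nppc (C-type) had 9, 2 and 3. No sample had more than 7 reads of any of the 3. None of them could be tested, nor could Ostn (osteocrin), whose product binds the clearance receptor and which had 16 reads in 1 BAT sample, 1 read in 1 iWAT sample and none in the others.

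A wider list of 54 genes of the pathway was followed through the same fits. Of the 30 tested between iWAT and BAT, 7 were higher and 11 lower in iWAT, a share of 60.0% against 67.6% of all rows. Of the 31 tested between eWAT and BAT, 11 were higher and 9 lower in eWAT (64.5% against 73.9%), and of the 31 tested between iWAT and eWAT, 3 were higher and 7 lower in iWAT (32.3% against 52.4%). No test of the list against other genes was run. By class, 3 of 4 peptide-processing genes, all 5 nitric oxide synthases and their regulators, 1 of 7 other guanylyl cyclases (Gucy1a2), 9 of 15 other phosphodiesterases, 9 or 10 of 16 kinase substrates and effectors and all 3 exporters could be tested, and none of the 4 ligands. Against BAT, iWAT was higher for 4 genes of the phosphodiesterase class and lower for 3, and eWAT was higher for 3 and lower for 2. The 4 genes higher in iWAT include Pde6d, whose product shuttles prenylated proteins. For substrates and effectors, iWAT was higher for 1 and lower for 4, and eWAT was higher for 2 and lower for 4. Median log2 fold changes over the list were -0.05, 0.05 and -0.26, compared with 0.01, 0.08 and 0.04 over all genes.

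Among genes that process or degrade the peptides, Ide, the insulin-degrading enzyme that also cleaves atrial natriuretic peptide, had a mean RPKM of 6.26 (iWAT), 9.41 (eWAT) and 11.9 (BAT) and was lower in both kinds of white adipocyte than in BAT (log2 fold changes -1.20 ± 0.11 and -1.08 ± 0.11, adjusted p = 3.9e-07 and 3.3e-08 in edgeR). Mme (neprilysin), which degrades natriuretic peptides, had mean RPKM of 22.8, 16.9 and 16.7. Mme was higher in iWAT than in eWAT (0.86 ± 0.18, adjusted p = 0.00050), and between iWAT and BAT it was at 0.18 (adjusted p = 0.28) but called without TMM factors (0.45, adjusted p = 0.0076). Its fall of -0.72 between eWAT and BAT (adjusted p = 0.0012) turned to 0.02 without TMM factors. Furin, a protease that matures the precursors of B-type and C-type peptide, had mean RPKM of 6.71, 10.9 and 7.52 and was called between iWAT and BAT (-0.43 ± 0.10, adjusted p = 0.0013), though not without TMM factors (-0.16, adjusted p = 0.14). Between eWAT and BAT Furin was at -0.19 (adjusted p = 0.24) and could be called either way: higher in eWAT without TMM factors (0.53, adjusted p = 0.0020), and lower without eWAT 15 (-0.37, adjusted p = 0.0025) or without the length offset (-0.48, adjusted p = 0.0074).

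Of the nitric oxide synthases, Nos3 (the endothelial form) was the most abundant, at a mean RPKM of 10.7 (iWAT), 8.85 (eWAT) and 4.13 (BAT). It was higher in iWAT than in BAT (1.11 ± 0.11, adjusted p = 1.0e-06). All 6 iWAT samples (9.07 to 13.2) lay above all BAT samples (3.32 to 5.58). Its difference of 0.37 between eWAT and BAT (adjusted p = 0.049) was lost when any of 9 of the 12 libraries was left out, among them eWAT 8 (0.28, adjusted p = 0.13). Between iWAT and eWAT it was called at 0.72 (adjusted p = 0.0013) and not without TMM factors (0.27, adjusted p = 0.23).

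Among phosphodiesterases other than Pde5a, Pde3b, which cyclic GMP inhibits and which is the main form of adipocytes, had mean RPKM of 55.0 (iWAT), 59.0 (eWAT) and 25.4 (BAT). It was higher than in BAT by 0.85 ± 0.12 in iWAT (adjusted p = 3.3e-05) and by 0.49 ± 0.19 in eWAT (adjusted p = 0.029). The eWAT call was lost without any of 7 of the 12 libraries, for example at 0.40 without eWAT 14 (adjusted p = 0.077), and Pde3b was at 0.27 (adjusted p = 0.19) on identical rows. Pde1a, a calmodulin-dependent form, was higher in iWAT than in BAT by 1.20 ± 0.09 (adjusted p = 6.4e-08). Its difference of 0.44 between eWAT and BAT (adjusted p = 0.038) was lost without any of 9 of the 12 libraries, for example at 0.35 without eWAT 7 (adjusted p = 0.098). Pde2a, which cyclic GMP stimulates, had mean RPKM of 8.29, 13.96 and 6.30 and was not called in any of the 3 comparisons (adjusted p = 0.66, 0.15 and 0.34). It was called higher in eWAT than in BAT without TMM factors (1.15, adjusted p = 0.00086) and was called between iWAT and eWAT without iWAT 14 (-0.65, adjusted p = 0.0087). Pde6d, which shuttles prenylated proteins, was higher in iWAT than in BAT by 0.64 ± 0.14 (adjusted p = 0.0013) and had a log2 fold change of 0.43 (adjusted p = 0.074) between eWAT and BAT. On rows identical in all files that value was 0.95 (adjusted p = 0.00088), and Pde6d was also called higher in eWAT without TMM factors (1.15, adjusted p = 8.7e-05), with factors from identical rows (0.86, adjusted p = 0.0019), without the length offset (0.84, adjusted p = 0.0023), and without eWAT 11 (0.52, adjusted p = 0.034) or eWAT 13 (0.50, adjusted p = 0.046). With the longest eWAT transcript it turned to -1.85 (adjusted p = 1.2e-09).

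Of the kinase substrates and effectors, Vasp, an actin regulator that the kinase phosphorylates, had mean RPKM of 9.19 (iWAT), 13.3 (eWAT) and 4.49 (BAT) and was higher than in BAT in both kinds of white adipocyte (0.78 ± 0.14 and 0.86 ± 0.16, adjusted p = 0.00025 and 8.2e-05 in edgeR), without overlap of the groups. Rgs2, a regulator of G protein signaling that the kinase activates, was lower in both (-2.48 ± 0.49 and -2.11 ± 0.63, adjusted p = 0.00048 and 0.0055), though not in eWAT with the transcript of highest RPKM (-1.31, adjusted p = 0.062). Its RPKM was scattered: 8.22 to 54.3 in BAT, and 33.4 in eWAT 15 against 8.48 or less in the other eWAT samples. Ppp1r12a, the targeting subunit of myosin phosphatase, had mean RPKM of 6.98, 8.52 and 5.06 and was not called (adjusted p = 0.13, 0.83 and 0.31), and was called between iWAT and BAT without iWAT 14 (0.30, adjusted p = 0.010). Without TMM factors Ppp1r12a was called higher than in BAT in both iWAT (0.46, adjusted p = 0.0054) and eWAT (0.75, adjusted p = 7.1e-05), the latter also with factors from identical rows (0.45, adjusted p = 0.0039).

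Hspb6, a small heat shock protein that the kinase phosphorylates, turned with a single library. Its RPKM was 37.0 in BAT 12, the library with the high skeletal muscle sum, and 3.85 to 6.56 in the other BAT samples, compared with 6.03 to 10.54 in iWAT and 10.2 to 15.2 in eWAT. Its log2 fold changes against BAT of -0.44 for iWAT (adjusted p = 0.48) and -0.37 for eWAT (adjusted p = 0.48) became 0.64 (adjusted p = 0.0090) and 0.71 (adjusted p = 0.0020) without BAT 12. Abcc5, a transporter that exports cyclic GMP, had mean RPKM of 2.82 (iWAT), 5.56 (eWAT) and 2.31 (BAT). Its higher level in eWAT than in BAT (0.54 ± 0.16, adjusted p = 0.0046) turned to -0.22 (adjusted p = 0.23) without the length offset. Abcc5 reached the 5 RPKM that the naming rule asks for through eWAT alone, and the other exporters, below that level, are named here after their values were seen. Abcc4, which also carries cyclic nucleotides out of cells, averaged 0.733 (iWAT), 1.30 (eWAT) and 2.13 RPKM (BAT) and was lower than in BAT in both (-1.80 ± 0.15 and -1.45 ± 0.15, adjusted p = 9.7e-08 and 7.3e-08), a direction that each scaling kept. Abcg2 was higher in eWAT than in BAT (0.98 ± 0.33, adjusted p = 0.013), though not without the length offset (0.38, adjusted p = 0.32), and was at -0.14 (adjusted p = 0.73) between iWAT and BAT.

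**Figure D5:**
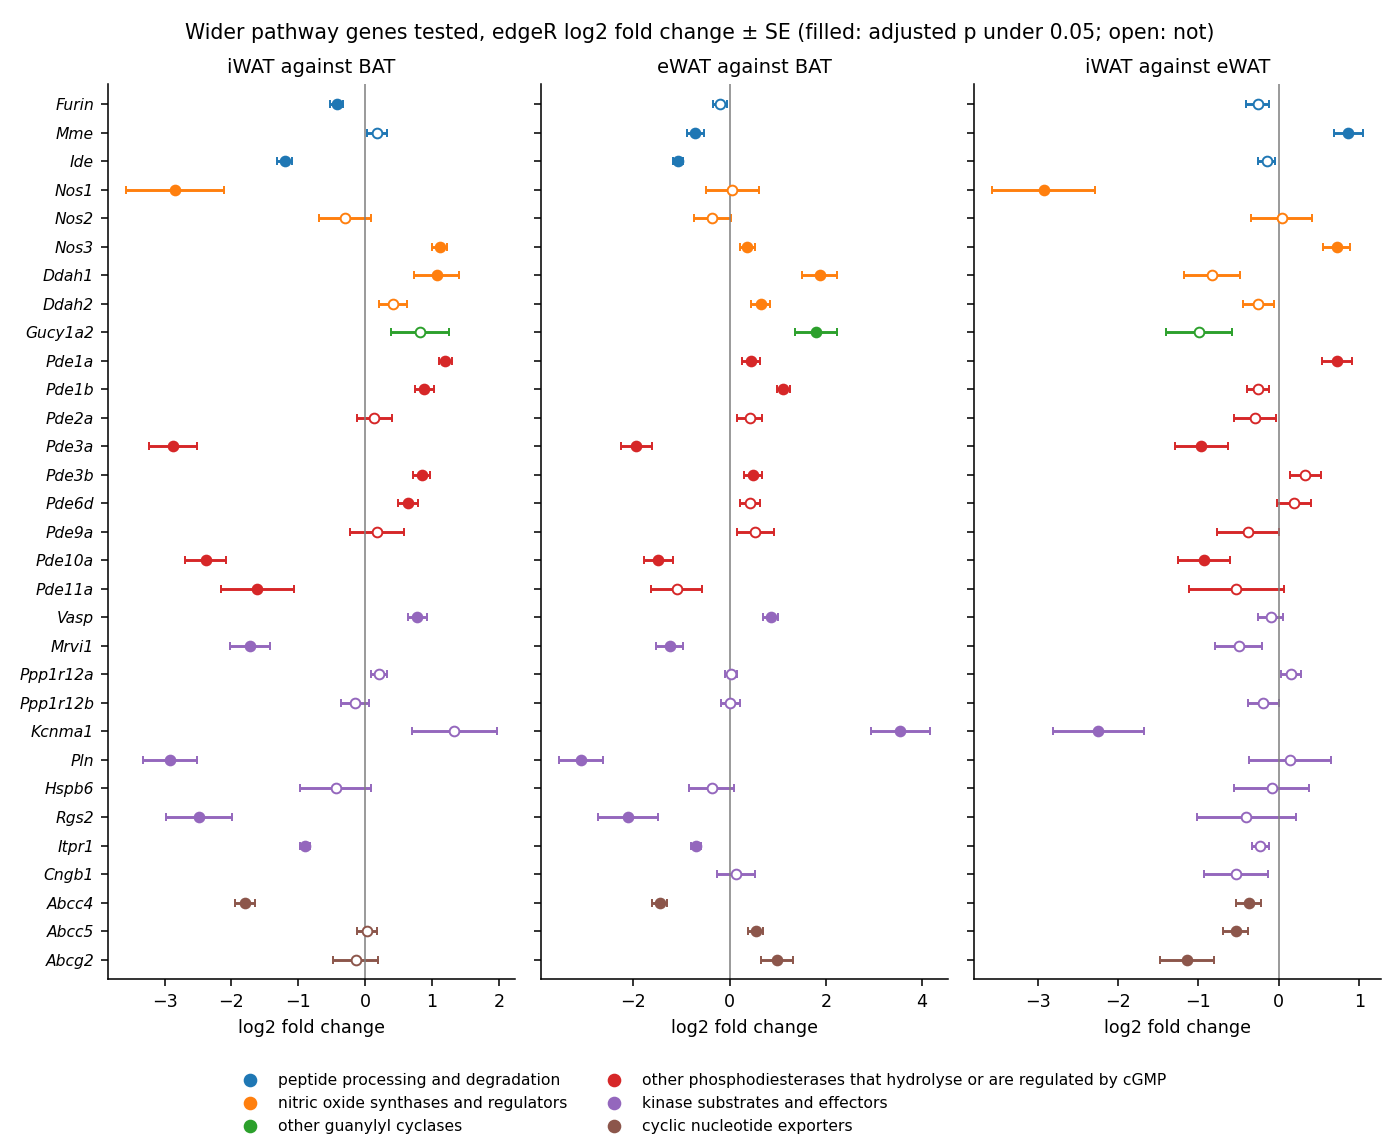
Log2 fold change ± SE (horizontal axes) of the tested genes of the wider list, coloured by class, with filled circles for adjusted p under 0.05. Ide lies at -1.20 and -1.08 and Vasp at 0.78 and 0.86 in the 2 comparisons with BAT, and fold changes that involve eWAT depend on scaling and row length, with Mme and Abcc5 changing sign.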

How the data were processed

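The 18 libraries were made with a NEBNext Ultra kit from total RNA. The submitters' processing notes name cutadapt 1.16, HISAT2 2.1.0 and the build mm9, and the study's methods name the Genomatix Genome Analyzer. Annotation version, treatment of reads shared by several rows and use of strand are not given in the sources used here. The deposited read counts per row are not normalized. The deposited RPKM values were computed by the authors from these counts, the row's length and the sample's total, which was recovered from the 2 columns and used as library size. Samples were grouped by their labels.

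The members and gene lists were chosen with earlier results of these data known. Rows that reached 10 reads in 6 or more samples were compared with the quasi-likelihood test of edgeR 4.0.16 (R 4.3.3) with TMM factors and Benjamini-Hochberg adjustment over all rows tested, at 0.05. iWAT and BAT were fitted alone (12 samples), and comparisons with eWAT were fitted over 18 samples on 1 row per symbol with row length as an offset. Balances used log2(RPKM + 0.1), with two-sided exact permutation tests in scipy 1.17.1. Like patterns used Pearson's r of log2(RPKM + 0.1) centred on each depot's mean. Besides the 8 members and the ligands, genes of the wider list that averaged 5 RPKM or more in some depot were named, and marker genes. Alternatives were DESeq2 1.42.0, limma 3.58.1 on log2(RPKM + 0.1) and log2(RPKM + 1), no TMM factors or factors from identical rows, other filters, other eWAT transcripts, no length offset, identical rows only, the number in the title as a block, and leaving out samples. Limits from 3 reads cover counting error only.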

Additional observations from a re-analysis of the deposited data

Results flagged for a closer look

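Of 30 sets of 6 samples examined (the members' RPKM in each depot and the 2 balances), 3 held a sample whose distance from the nearest other exceeded Dixon's 95% critical value, where chance would give about 1.5. Npr1 in iWAT 14 was at 6.777 RPKM, with the other iWAT samples at 1.95 to 3.69. Prkg1 in eWAT 8 was at 0.7783 RPKM, with the others at 0.229 to 0.394, and Prkg1 in BAT 12 was at 0.7174 RPKM, with the others at 0.181 to 0.273. The summed endothelial markers were highest of their depot in iWAT 14 and eWAT 8, and the summed skeletal muscle markers in BAT 12. The part of these cells in the 3 values was not tested.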

How the results depend on the processing

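Over all results and alternatives other than leaving out a sample, 573 values kept direction and side of the threshold, 69 passed it that had not, 41 no longer passed it, 67 changed sign and 12 counts moved by over 1.5 times. The cause of these changes was not tested. Against BAT, Npr3 and Npr2 kept direction and call under every alternative run. Row length, scaling and the choice of eWAT transcript limit the comparisons with eWAT, and low reads limit Prkg1 and Prkg2, the latter tested only without the filter on low counts.

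Genes called numbered 3539, 3824 and 724 (iWAT-BAT, eWAT-BAT, iWAT-eWAT) on identical rows and 4712 between iWAT and eWAT without the length offset. Members called between iWAT and BAT were 3 at a mean RPKM of at least 1 (Npr1, Npr2 and Npr3). That filter left Prkg1 and Pde5a untested, and 10315 of 14598 rows were called under it. Between iWAT and eWAT members called were 7 with limma at either pseudocount and without TMM factors, and 5 with factors from identical rows. They were 1 at a mean RPKM of at least 1 (Gucy1a3, where 8374 of 13874 symbols were called) and 1 without the length offset. Of all 18383 symbols, limma called 9640 and 9491 at pseudocounts 0.1 and 1. The fit without TMM factors called 9612 of them, and that with factors from identical rows 9177. The share of calls that were higher was 65.2%, 77.9% and 10.2% with limma on log2(RPKM + 0.1), and 69.8% (eWAT-BAT) and 13.8% (iWAT-eWAT) with factors from identical rows. The iWAT-eWAT balance of Gucy1a3 over Gucy1b3 was -0.18 (exact permutation p = 0.104) with the highest-RPKM transcript.

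The samples share only a number. Samples with the same number in 2 depots (4, 4 and 5 pairs) had a mean correlation of deviations of 0.03, -0.09 and -0.09, with 0, 0 and 1 pair over 0.1. With the number as a block, 11710, 12433 and 8374 genes were called, and the balances were 5.58 and 4.98 (Npr3 over Npr1 against BAT) and 0.43 and -0.31 (Gucy1a3 over Gucy1b3, eWAT-BAT and iWAT-eWAT), each with an exact permutation p of 0.125, a design of 4 or 5 pairs that cannot pass 0.05. Under the block Gucy1a3 (-0.97, adjusted p = 0.020) and Gucy1b3 (-1.02, adjusted p = 0.017) were called between iWAT and BAT, as was Mme (0.31, adjusted p = 0.036), Nos3 (0.38, adjusted p = 0.077) and Pde3b (0.57, adjusted p = 0.052) did not pass between eWAT and BAT, Hspb6 turned to 0.0805 and Pde2a to -0.36 (iWAT-BAT), and in eWAT-BAT Hspb6 turned to 0.37, Gucy1b3 to 0.0297 and Pde5a to -0.0188.

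Leaving out each sample in turn gave 12307 to 13295, 12921 to 13480 and 8971 to 9765 genes called, and 5 to 7, 3 to 3 and 2 to 5 members. The genes tested in these fits numbered 19121 to 19389, 18006 to 18289 and 18166 to 18338. The Npr3 over Npr1 balance ran from 5.09 to 5.65, 4.95 to 5.21 and 0.03 to 0.59, and that of Gucy1a3 over Gucy1b3 from 0.11 to 0.19 (p = 0.0433 by exact permutation without iWAT 7), 0.39 to 0.50 and -0.36 to -0.24. Signs changed for Abcc5 (-0.0747 to 0.11), Hspb6 (-0.64 to 0.64) and Pde2a (-0.19 to 0.30) between iWAT and BAT, for Gucy1b3 (-0.25 to 0.12), Prkg1 (-0.61 to 0.0951), Pde5a (-0.14 to 0.0836), Ppp1r12a (-0.0405 to 0.11) and Hspb6 (-0.57 to 0.71) between eWAT and BAT, and for Rgs2 (-0.62 to 0.59) and Vasp (-0.18 to 0.0401) between iWAT and eWAT.

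Other changes of sign, as log2 fold changes, were as follows. With limma at pseudocounts 0.1 and 1, iWAT-BAT gave Hspb6 0.44 and 0.36. With limma, eWAT-BAT gave Gucy1b3 0.59 and 0.42, Prkg1 0.35 and 0.11, Hspb6 0.97 and 0.84 and Furin 0.49 and 0.45, and iWAT-eWAT gave Pde3b -0.0411 and -0.0419, Pde6d -0.19 and -0.19 and Ppp1r12a -0.28 and -0.25. Without TMM factors, eWAT-BAT gave Gucy1b3 0.74, Prkg1 0.40, Hspb6 0.36, Furin 0.53 and Mme 0.022, and iWAT-eWAT gave Pde3b -0.10, Pde6d -0.25 and Ppp1r12a -0.29. With factors from identical rows, eWAT-BAT gave Gucy1b3 0.42, Prkg1 0.0797, Hspb6 0.0406 and Furin 0.23, and iWAT-eWAT gave Pde3b -0.0203, Pde6d -0.18 and Ppp1r12a -0.21. Pde6d was at -0.21 in iWAT-eWAT on identical rows. Without eWAT 14, eWAT 15 and BAT 12, Hspb6 was at 0.64 in iWAT-BAT, eWAT-BAT gave Gucy1b3 0.25, Prkg1 0.29 and Hspb6 0.67, and iWAT-eWAT gave Rgs2 0.54 and Vasp 0.0112. Without the length offset, eWAT-BAT gave Gucy1b3 0.25, Pde5a -0.0423 and Abcc5 -0.22, and iWAT-eWAT gave Pde6d -0.24, Abcc5 0.21, Furin 0.0096, Hspb6 0.28 and Ide 0.0229. With the highest-RPKM transcript, eWAT-BAT gave Pde5a -0.26, Furin 0.0081 and Ppp1r12a -0.0654, and iWAT-eWAT gave Npr2 0.13, Hspb6 0.17 and Vasp 0.14. With the longest transcript, eWAT-BAT gave Gucy1b3 0.19, Furin 0.0073 and Pde6d -1.85, and iWAT-eWAT gave Ppp1r12a -0.0217 and Hspb6 0.44. DESeq2 gave Pde5a -0.0611 and Ppp1r12a -0.0352 in eWAT-BAT, no filter gave Gucy1b3 0.0897 in eWAT-BAT, and a mean RPKM of at least 1 gave Abcc5 -0.0345 in iWAT-BAT and Ppp1r12a -0.066 in eWAT-BAT.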
